A study of Homo sapiens with 6 samples.

Results

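Metallothioneins are small cysteine-rich proteins that bind zinc and other metal ions, and their genes are examined here with MTF1 and 3 zinc and manganese transporter genes. The 9 genes were chosen by symbol, as the rows of the count table named MT1E, MT1F, MT1G, MT1X, MT2A, MTF1, SLC30A1, SLC30A10 and SLC39A10, and all 9 were found among its 63643 rows. The cells were HEK293T, a widely used line derived from human embryonic kidney. Every library, Control included, came from ΔGLO1 cells, which lack GLO1, an enzyme of the glyoxalase system that detoxifies methylglyoxal (MGO), and whether they are 1 clone is not stated. The MGO group (3 libraries) received 60 µM MGO, a reactive by-product of glycolysis, for 4 h, and the Control group (3 libraries) was untreated. The names of the MGO libraries carry a number other than this dose, whose meaning the labels do not give. The study asked for a transcriptional response to MGO, with the integrated stress response in view, and the comparison here covers its metal-handling transcripts.

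Zinc homeostasis rests on buffering and on transport. MTF1 is a zinc finger transcription factor that senses free zinc, binds metal response elements and activates the metallothionein genes and SLC30A1. The SLC30 family moves zinc out of the cytosol, and SLC30A1 does so across the plasma membrane. The SLC39 family moves zinc into the cytosol, and SLC39A10, an importer despite its grouping here with exporters, is known to be repressed by MTF1 when zinc is high. SLC30A10 is known chiefly as a manganese exporter.

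Total counts lay between 117427883 and 157639431 per library. Fold changes were computed after TMM scaling, which sets libraries to a common scale on which most genes are taken as unchanged, and calls are edgeR adjusted p-values under 0.05. Nothing in the labels says that replicates are separate cultures. The p-values therefore reflect only how these libraries vary, which may be technical. GLO1 itself stood at 101.8 CPM (counts-per-million, TMM-scaled) in MGO and 37.27 CPM in Control. Since the deleted stretch of GLO1 is not named, its reads are no check on the deletion or on the labels. All 7 markers listed for HEK293 cells had counts, and they moved apart: KRT18 (1.88 on the log2 scale), KRT8 (1.58) and VIM (0.89) rose, and PAX2 (−1.94), NEFM (−1.39), NEFL (−0.94) and LIN28B (−0.72) fell. Their summed level was 1996 to 2230 CPM in MGO and 961.5 to 1005 CPM in Control. The 5 fibroblast markers summed to between 5.21 and 5.78 CPM in MGO and 14.2 and 15.4 CPM in Control, the 5 blood cell markers to between 1.22 and 1.87 CPM and 0.989 and 1.41 CPM, and none of the 10 was at 0. The part of these differences in the results was not tested.

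The coding sequences of MT2A, MT1X and MT1F, the listed metallothioneins with more than 1 count, are shown because their near-identity bears on how reads were assigned and their cysteine codons on what the proteins do. They were read from the GENCODE 29 transcripts (GRCh38), 5′ to 3′ and spliced, with the in-frame cysteine codons in capitals.
MT2A: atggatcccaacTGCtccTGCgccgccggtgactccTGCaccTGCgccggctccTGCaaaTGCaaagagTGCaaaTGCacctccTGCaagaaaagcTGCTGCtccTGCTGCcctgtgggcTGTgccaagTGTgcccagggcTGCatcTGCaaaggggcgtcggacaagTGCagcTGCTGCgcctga
MT1X: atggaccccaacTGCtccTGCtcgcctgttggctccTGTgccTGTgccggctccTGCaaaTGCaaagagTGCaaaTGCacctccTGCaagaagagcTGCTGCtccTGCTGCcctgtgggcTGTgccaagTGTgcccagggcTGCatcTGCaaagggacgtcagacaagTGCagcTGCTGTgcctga
MT1F: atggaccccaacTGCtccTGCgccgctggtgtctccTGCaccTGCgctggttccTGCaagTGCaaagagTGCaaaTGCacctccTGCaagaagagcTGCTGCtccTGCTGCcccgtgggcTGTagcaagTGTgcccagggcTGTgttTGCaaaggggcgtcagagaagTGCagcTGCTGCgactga
Each has 186 bases and 61 codons before the stop, of which 20 (32.8%) code for cysteine. MT2A differed from MT1X at 14 of 186 positions (92.5% identity) and from MT1F at 16 (91.4%), and MT1X from MT1F at 21 (88.7%). Despite this, no 100-base window of the MT2A, MT1F, MT1E or MT1G transcripts was found exactly in a transcript of another gene. For MT1X, 223 of 723 windows (30.8%) were shared, all with AC026461.1, a noncoding transcript on the same strand that overlaps it. The row of AC026461.1 held 0 counts in every library. How reads in both genes were counted is not known, so this 0 does not show that MT1X kept all its reads. Windows of other lengths, the genome sequence, read pairs and inexact matches were not searched, so reads shorter than 100 bases are not covered.

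The windows from 250 bases before to 50 bases after the RefSeq start (GRCh38.p14) of MT2A, MT1X and SLC30A1 are shown because these 3 genes rose together and their promoters are textbook sites of MTF1 binding. Capitals mark the metal response element core, searched as TGCACNC and TGCGCNC on both strands. A position that matched on both strands was counted once, and no matches overlapped.
MT2A, chr16:56608334-56608633, plus strand: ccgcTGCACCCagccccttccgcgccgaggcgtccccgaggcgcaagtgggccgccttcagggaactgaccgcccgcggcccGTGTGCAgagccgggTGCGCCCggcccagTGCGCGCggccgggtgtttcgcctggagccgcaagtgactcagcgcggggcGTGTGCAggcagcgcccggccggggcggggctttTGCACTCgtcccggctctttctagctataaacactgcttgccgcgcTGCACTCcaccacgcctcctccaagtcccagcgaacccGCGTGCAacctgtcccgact
MT1X, chr16:56682220-56682519, plus strand: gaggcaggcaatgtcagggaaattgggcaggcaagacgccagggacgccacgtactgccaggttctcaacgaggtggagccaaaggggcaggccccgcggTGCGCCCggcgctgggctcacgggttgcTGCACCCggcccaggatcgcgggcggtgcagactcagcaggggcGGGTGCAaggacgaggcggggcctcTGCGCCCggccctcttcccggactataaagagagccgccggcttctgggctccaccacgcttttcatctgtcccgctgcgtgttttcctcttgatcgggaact
SLC30A1, chr1:211579112-211579411, minus strand: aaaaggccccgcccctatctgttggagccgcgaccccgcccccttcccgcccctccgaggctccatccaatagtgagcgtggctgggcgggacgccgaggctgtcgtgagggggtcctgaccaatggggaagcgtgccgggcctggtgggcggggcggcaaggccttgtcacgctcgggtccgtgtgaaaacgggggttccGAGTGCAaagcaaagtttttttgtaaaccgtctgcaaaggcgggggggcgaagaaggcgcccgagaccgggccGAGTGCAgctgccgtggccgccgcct
MT2A held 8 matches, of which 7 lay wholly before the start, MT1X held 4, all before the start, and SLC30A1 held 2, of which 1 lay before the start. Of all 35116 windows of this length in the table, 29.6% held at least 1 match, 8.6% at least 2, 0.601% (211) at least 4 and 0.0199% (7) at least 8. The table had windows for 6 of the 9 genes. No match was found in the MTF1 window or in either SLC30A10 window, and SLC39A10 held 1 match in the second of its 2 windows and none in the first. A match is a string of letters and not a measured binding site, and GC content ran from 67.0 to 72.0% in the 3 windows shown.

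Of the 9 genes, 7 passed the filter on low counts. Among these, MT2A, MT1X, MT1F, SLC30A1 and MTF1 were called higher in MGO and SLC30A10 and SLC39A10 lower, which makes 5 raised and 2 lowered. Over all 23109 genes tested, 79.3% were called, 38.8% raised and 40.5% lowered, so a call alone does not set these genes apart. The 2 groups did not overlap for any of the 7, where this held for 81.5% of all genes tested (39.7% with MGO higher and 41.8% with MGO lower). The median log2 fold change of the 7 was 1.23, beside −0.02 over all genes tested. Under scaling by library size alone, 4 were raised and 3 lowered, because MTF1 changed direction, while raised genes made up 30.6% of all calls in place of 48.9%. With that scaling the all-gene median shifted by −0.52 (log2), and with upper quartile scaling by 0.17.

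**Figure D1:**
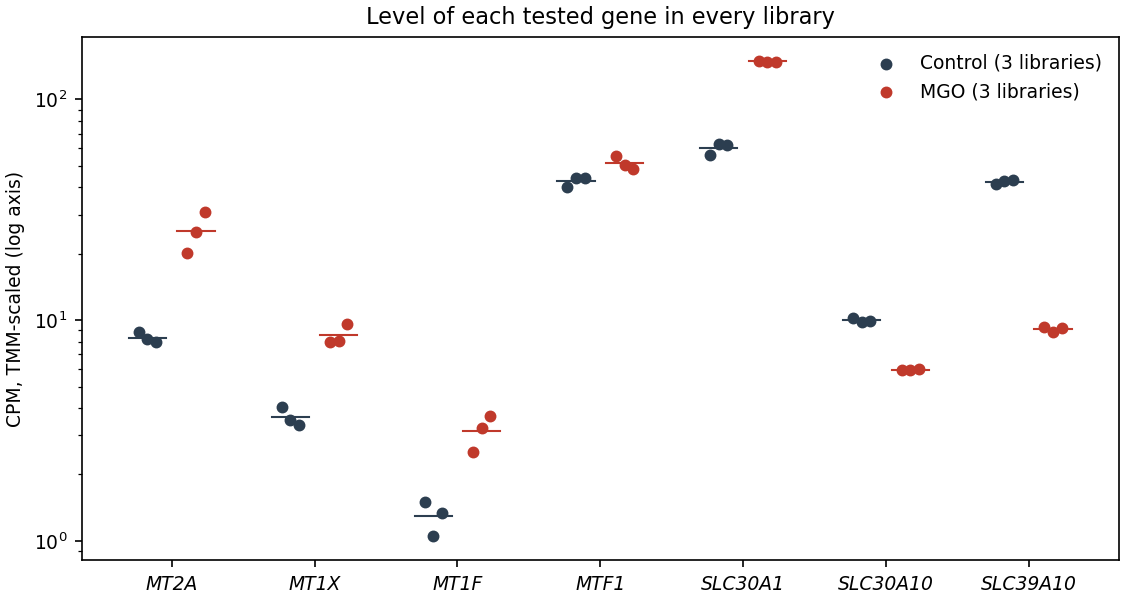
Level of each of the 7 tested genes in every library, as TMM-scaled CPM on a log axis; points are libraries and short lines group means. MGO libraries lie above Control for MT2A, MT1X, MT1F and SLC30A1 and, by less, for MTF1 (a difference that turns under library size scaling), and below Control for SLC30A10 and SLC39A10.

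MT2A, the most abundant metallothionein transcript here, had 2227, 2841 and 3538 counts in the MGO libraries (replicates 1 to 3, in that order here and throughout), against 1260, 1550 and 1383 in the Control libraries. On the CPM scale these were 20.24, 25.14 and 30.87 in MGO and 8.84, 8.194 and 7.964 in Control. All MGO libraries lay above all Control libraries, and the MGO libraries differed from each other more than the Control libraries did. The means were 25.42 ± 5.32 CPM (SD, n = 3) in MGO and 8.333 ± 0.454 in Control, a 3.05-fold rise (log2 fold change 1.61, SE 0.13, edgeR adjusted p = 1.19e-07). In a bulk sample, more RNA per cell and more cells that express the gene cannot be told apart.

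MT1X, a widely expressed MT1 isoform, stood at 7.953, 8.045 and 9.58 CPM in MGO and at 4.041, 3.516 and 3.34 CPM in Control. It rose 2.35-fold (log2 fold change 1.23, SE 0.10, edgeR adjusted p = 2.43e-07), from 3.632 ± 0.365 to 8.526 ± 0.914 CPM. MT1F stood at 2.527, 3.257 and 3.682 CPM in MGO and 1.494, 1.047 and 1.33 CPM in Control, from 198 to 422 counts per library. It rose 2.46-fold (log2 fold change 1.30, SE 0.16, edgeR adjusted p = 1.09e-05). In each of MT2A, MT1X and MT1F, MGO replicate 3 was the highest of the MGO libraries and MGO replicate 1 the lowest. Around its MGO mean, MT2A deviated by −0.31, 0.01 and 0.30 on the log2 scale in replicates 1 to 3, MT1F by −0.30, 0.06 and 0.24, and MT1X by −0.10, −0.08 and 0.17. The shortest length decile holds MT1X but not MT2A or MT1F. Its genes averaging 1 CPM or more deviated in the same libraries by a median of −0.05, 0.02 and 0.02, computed on log2(CPM + 1).

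MT1E and MT1G, which are metal-inducible in many cell types, were not tested. Each had 1 count in all, MT1E in MGO replicate 3 and MT1G in MGO replicate 1. In a single library, 3 counts, the limit that a count of 0 allows, correspond to between 0.0159 and 0.0273 CPM, depending on the library. This limit covers counting error only, and it is higher for the 1 library of each gene that held a count. No fold change is given for genes at this level. SLC39A7, a zinc transporter that most tissues express, was also near 0 in this table (described with its family), so these values are not read as absent expression.

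The metallothionein cluster lies on chromosome 16 between the coding genes BBS2 and NUP93, from MT4 (start 56565049) to MT1X (end 56684196, GRCh38). It holds 11 metallothionein genes and 5 pseudogenes. Of these genes, 4 had 10 counts or more over all libraries (MT2A, MT1X, MT1F and MT3), MT1A, MT1H and MT1M were at 0, and all 5 pseudogenes (MT1L, MT1JP, MT1DP, MT1CP and MT1IP) were at 0. MT1B and MT4 had 1 and 2 counts. Outside the cluster, the metallothionein rows MT1P1, MT1HL1 and MT1P3 had 19, 6 and 1 counts. MT3, the isoform best known from brain, had 20, 21 and 21 counts in MGO and 7, 4 and 11 in Control. It rose by 2.05 on the log2 scale (SE 0.38, edgeR adjusted p = 0.000336) at only 0.184 CPM in MGO. The 4 metallothioneins tested were all raised, also under RLE, upper quartile and library size scaling, with a median of 1.45, or 0.92 under library size alone. MT3, with few Control counts, passed the low-count filter through its MGO libraries, so its direction was partly set by the filter. With at least 1 CPM required in 3 libraries, the other 3 were tested and all raised, with a median of 1.28. Of all genes tested 38.8% were raised, and 46.3 and 47.4% in the length deciles of MT1X and of MT2A and MT1F. BBS2 at the left edge had a log2 fold change of −0.48, past the threshold. NUP93 at the right edge was called at 0.26 but turned to −0.27 (adjusted p = 0.00112) under library size alone. AC106779.1, an antisense gene beside NUP93, was at 0.75 (edgeR adjusted p = 0.0445), a call lost under library size alone (0.23, adjusted p = 0.512) and with the trend on transcript length removed (0.45, adjusted p = 0.21).

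**Figure D2:**
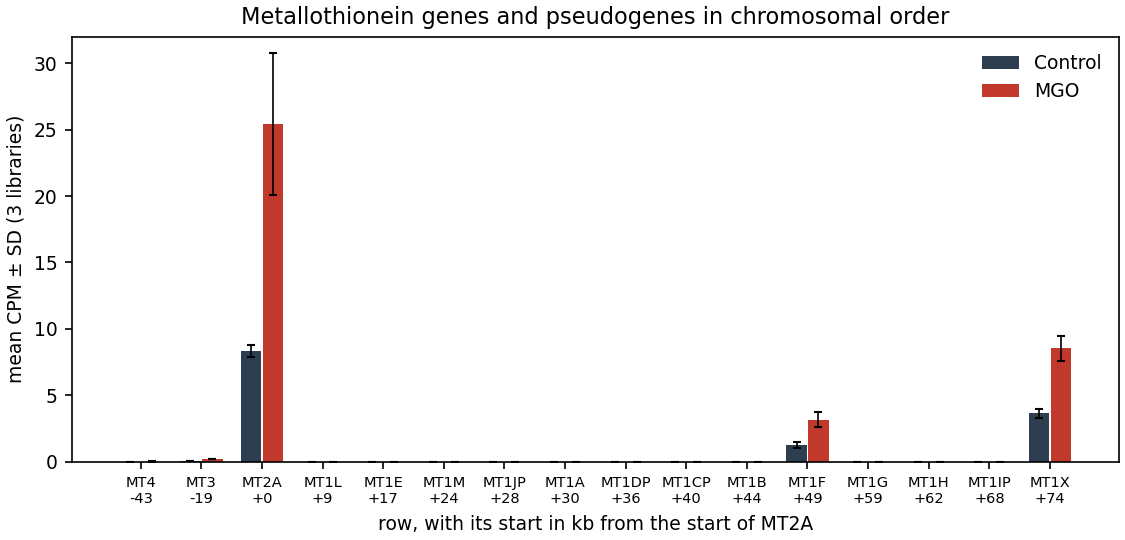
Mean CPM ± SD (3 libraries per group) of the 16 metallothionein genes and pseudogenes of chromosome 16 in chromosomal order, with the start of each in kb from that of MT2A. Bars rise visibly above 0 only for MT2A, MT1F and MT1X, and to a small height for MT3, and MGO bars are the taller in each.

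MT2A (chromosome 16, 56608199 to 56609497, plus strand), MT1F (56657694 to 56660698, plus strand) and MT1X (56682424 to 56684196, plus strand) together held nearly all metallothionein counts. The counts of all 21 metallothionein rows summed to 30.91, 36.71 and 44.4 CPM in MGO and 14.45, 12.79 and 12.72 CPM in Control. The MGO sum was 2.8 times the Control sum (1.94 times under library size alone). MT2A made up 65.5, 68.5 and 69.5% of these counts in MGO and 61.2, 64.0 and 62.6% in Control. MT1X made up 25.7, 21.9 and 21.6% in MGO and 28.0, 27.5 and 26.3% in Control, and MT1F between 8.17 and 10.5% in all libraries. The share of MT2A was thus higher and that of MT1X lower in every MGO library than in any Control library, while MT1F overlapped.

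Because counts of 2 genes in a library share its scaling, ratios between genes do not depend on it. The trend of changes on transcript length does not cancel in such ratios where the lengths differ. There were 2.55, 3.13 and 3.22 MT2A counts per MT1X count in MGO and 2.19, 2.33 and 2.38 in Control. The log2 ratio was 0.36 higher in MGO and the groups did not overlap, with a two-sided exact permutation p = 0.1, the smallest that 3 against 3 libraries allow (0.15 adjusted over the 6 ratios computed). The MT2A to MT1F ratio overlapped between groups (exact permutation p = 0.2, adjusted 0.24), as did MT1X to MT1F (p = 0.6).

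SLC30A1 (chromosome 1, 211571568 to 211578742, minus strand, 2 exons), the zinc exporter of the plasma membrane, stood at 150.1, 148.6 and 148.1 CPM in MGO and 56.24, 62.69 and 62.16 CPM in Control. The MGO libraries lay close together and far above Control. The rise was 2.47-fold (log2 fold change 1.30, SE 0.06, edgeR adjusted p = 1.61e-09), close in size to those of MT1X and MT1F. SLC30A1 had a coefficient of variation of 0.707% among MGO libraries, where MT2A had 20.9%, but 5.93% among Control libraries, where MT2A had 5.45%. Compared per kilobase of transcript, its level went from 11.0 ± 0.654 to 27.2 ± 0.192 CPM per kb, next to 12.2 ± 0.665 and 37.2 ± 7.78 CPM per kb for MT2A.

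SLC39A10 (chromosome 2, 195575977 to 195737702, plus strand, up to 10 exons), the zinc importer, showed the largest change of the 7 genes tested, except with the trend on transcript length removed, when its −1.16 was smaller in size than the changes of SLC30A1, MTF1 and MT2A. It had 1020, 999 and 1053 counts in MGO and 5919, 8084 and 7480 in Control, or 9.271, 8.841 and 9.187 CPM against 41.53, 42.74 and 43.07 CPM. It fell 4.66-fold (log2 fold change −2.22, SE 0.07, edgeR adjusted p = 5.16e-11). There were 16.2, 16.8 and 16.1 SLC30A1 counts per SLC39A10 count in MGO and 1.35, 1.47 and 1.44 in Control. This log2 ratio was 3.53 higher in MGO, with no overlap (exact permutation p = 0.1, the smallest possible, adjusted 0.15). The AHCYP5 and RNU6-915P pseudogenes lie on the other strand within SLC39A10, and the strand setting of the counting is not known.

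SLC30A10 (chromosome 1, 219685427 to 219958647, minus strand, 4 exons), the manganese exporter, moved the other way from SLC30A1. It stood at 5.945, 5.947 and 6.012 CPM in MGO and 10.22, 9.791 and 9.933 CPM in Control, without overlap. It fell 1.67-fold (log2 fold change −0.74, SE 0.07, edgeR adjusted p = 9.72e-07). Between SLC30A1 and SLC30A10 the log2 ratio was 2.05 higher in MGO, again with no overlap between groups (exact permutation p = 0.1, adjusted 0.15).

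MTF1 (chromosome 1, 37809567 to 37859620, minus strand, 11 exons), the metal-sensing activator, stood at 55.26, 50.54 and 48.51 CPM in MGO and 40.01, 44.05 and 43.95 CPM in Control. The groups did not overlap, but the highest Control and the lowest MGO library were close. The log2 fold change was 0.27 (SE 0.07, edgeR adjusted p = 0.00375), it turned to −0.25 (adjusted p = 0.00942) under library size alone, and it did not pass a test against a 1.2-fold change (adjusted p = 0.278). MTF1 is thus the tested member whose direction turned under the scalings tried. The log2 ratio of SLC30A1 to MTF1 counts, which needs no scaling, was 1.44, 1.56 and 1.61 in MGO and 0.49, 0.51 and 0.50 in Control (exact permutation p = 0.1, adjusted 0.15).

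Per kilobase of transcript, the order of mean levels in Control was MT2A (12.2), SLC30A1 (11.0), SLC39A10 (7.89), MT1X (7.35), MTF1 (5.35), SLC30A10 (5.21) and MT1F (2.33 CPM per kb). Among neighbours in that order, MT2A and SLC30A1, SLC39A10 and MT1X, and MTF1 and SLC30A10 lay within about the sum of their SDs, at 0.665 and 0.654, 0.151 and 0.739, and 0.289 and 0.115 CPM per kb. In MGO the order was MT2A (37.2), SLC30A1 (27.2), MT1X (17.3), MTF1 (6.45), MT1F (5.71), SLC30A10 (3.12) and SLC39A10 (1.69 CPM per kb). MTF1 and MT1F, with SDs of 0.435 and 1.06 CPM per kb, did not separate beyond their spread there. SLC39A10 went from the third place to the last. The order rests on annotated transcript lengths, and the SDs include no error in these lengths or in the assignment of reads.

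Fold changes over all genes followed transcript length in these libraries. The median log2 fold change was 0.50 in the shortest length decile of tested genes (53 to 539 nt) and 0.72 in the third decile, and it was −1.46 in the longest (5075 nt and above). The 3 listed metallothioneins have short transcripts of 683.5 nt (MT2A), 494 nt (MT1X) and 553 nt (MT1F), in deciles with medians of 0.43 (MT2A and MT1F) and 0.50 (MT1X). Their changes exceeded those of 83.3% (MT2A), 67.4% (MT1X) and 72.9% (MT1F) of genes in their own decile. With each library's trend on length removed, their log2 fold changes were 1.37, 1.03 and 1.08, all still past the threshold.

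SLC30A1, MTF1 and SLC39A10 fall in the longest decile, with 5474, 7972 and 5377 nt. In that decile 8.97% of genes were raised and 83.1% lowered. The change of SLC30A1 exceeded that of 98.5% of its decile and that of MTF1 91.4%, while SLC39A10 lay at 23.5%. With the length trend removed SLC30A1 stood at 2.39 and MTF1 at 1.75, and SLC39A10 at −1.16, past the threshold in each case. SLC30A10, with 1915 nt, is in a decile with a median of 0.31, lay above 19.2% of its genes, and stood at −0.92 with the trend removed.

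**Figure D3:**
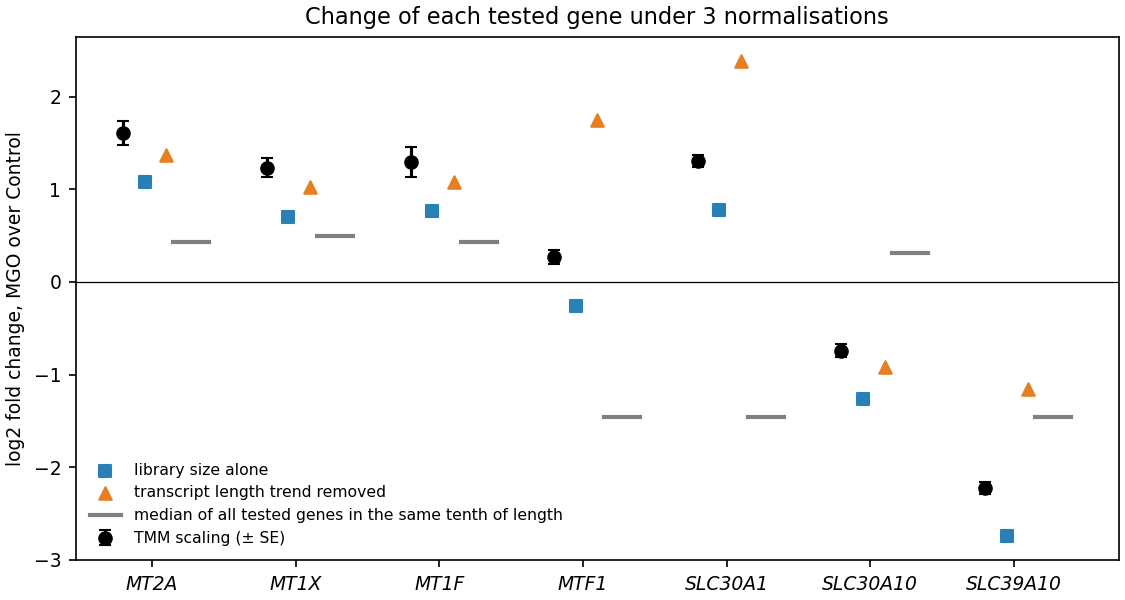
Log2 fold change of MGO over Control for the 7 tested genes with TMM scaling (circles, ± SE), with library size alone (squares) and with the transcript length trend removed (triangles); grey lines give the median of all tested genes in the same decile of transcript length. Only MTF1 changes sign, at −0.25 with library size alone.

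Around SLC30A1 and SLC30A10, the SLC30 family was split. Of 10 SLC30 genes 9 were tested, of which 2 rose, 5 fell and 2 passed in neither direction, where 38.8% of all genes tested rose and 40.5% fell. The family's median was −0.42, beside −0.02 over all genes. SLC30A1 had the largest rise, followed by SLC30A3, a vesicular zinc transporter, at 0.37 (SE 0.07, edgeR adjusted p = 0.00051), which stood at −0.16 (adjusted p = 0.0526) under library size alone. The largest falls were those of SLC30A6 (−1.08, SE 0.07) and SLC30A4 (−0.93, SE 0.08), which load zinc into the Golgi and vesicles. With the trend on transcript length removed, SLC30A4 turned to a called rise (0.44, edgeR adjusted p = 0.000297), SLC30A6 stood at −0.16, and SLC30A10 at −0.92 had the largest fall of the family. SLC30A2 (0.17) and SLC30A5 (−0.04) did not pass, and SLC30A8, the transporter of insulin granules, was not tested, with 9 counts in all. With the length trend removed, 5 SLC30 genes were raised and 2 lowered and the median turned to 0.38. Over all 21734 genes so fitted, 9449 were raised and 7559 lowered, with a median of 0.13. Under library size alone 1 SLC30 gene was raised and 6 lowered, where 5673 of 23109 genes were raised and 12885 lowered (median −0.55).

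Of 14 SLC39 genes 13 were tested, of which 4 rose, 7 fell and 2 did not pass (median −0.41, or −0.01 with the length trend removed). These counts stand beside 79.3% of all genes called, 38.8% raised and 40.5% lowered, and an all-gene median of −0.02. With the length trend removed the all-gene median was 0.13. Under library size alone 2 SLC39 genes rose and 8 fell, where 5673 of 23109 genes rose and 12885 fell. Among genes past the threshold, SLC39A10 had the largest fall, followed by SLC39A6, its closest relative in the family, which fell from 165.1 ± 1.24 to 80.09 ± 5.40 CPM (log2 fold change −1.04, SE 0.07, edgeR adjusted p = 1.37e-08). Among rises the largest were those of SLC39A7, which releases zinc from the endoplasmic reticulum (2.49, SE 0.41), and SLC39A1, an importer of the plasma membrane (1.03, SE 0.12). SLC39A7 had only 18, 17 and 26 counts in MGO and 2, 8 and 6 in Control, and SLC39A1 between 171 and 315 counts. SLC39A7 thus passed the low-count filter through its MGO libraries, so its direction was partly set by the filter. How reads matching several places were counted is not known, so these low levels are uncertain. SLC39A4 (−1.48, SE 0.64, adjusted p = 0.0502) and SLC39A2 (0.43) did not pass. SLC39A4, with 72 counts in all, did pass under library size alone (−2.00, adjusted p = 0.015). It also passed once the length trend was taken out (−1.53, adjusted p = 0.0426), and there it fell more than SLC39A10.

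**Figure D4:**
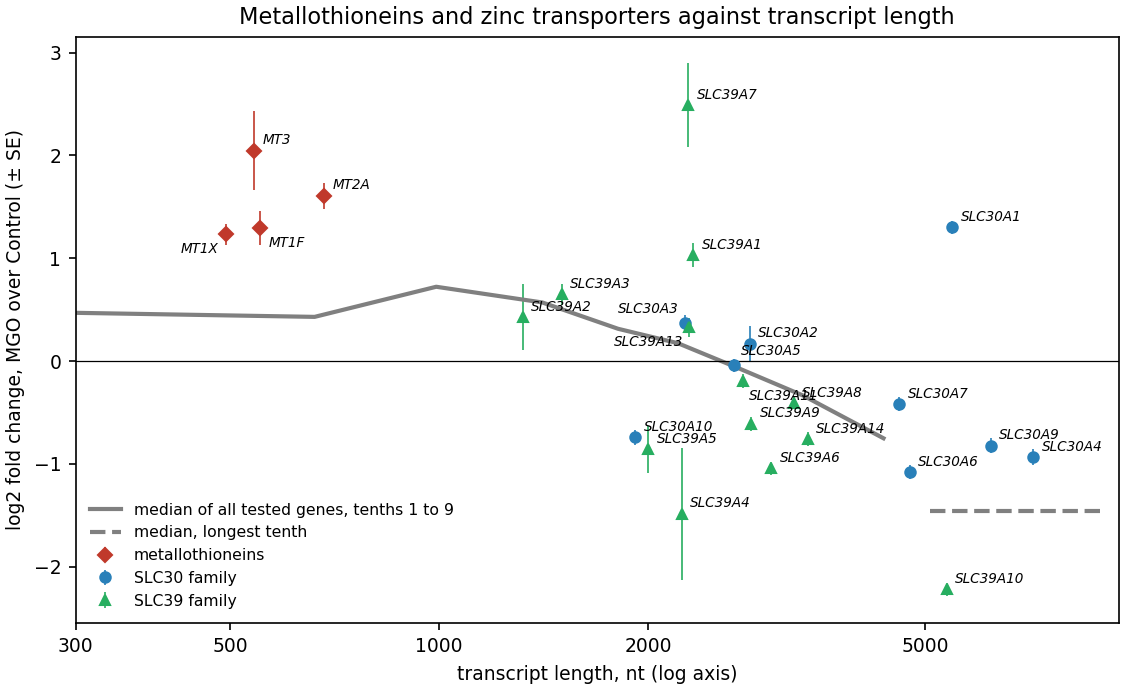
Log2 fold change (± SE) of every tested metallothionein, SLC30 and SLC39 gene against its transcript length on a log axis, with the median of all tested genes in deciles of length (grey line, dashed for the longest decile). SLC30A1 at 1.30 lies far above the −1.46 of its decile, SLC39A10 at −2.22 lies below it, and the metallothioneins lie above the line at its short end.

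Of 22 copper and iron handling genes 11 rose, 9 fell and 2 stayed short of the threshold, beside 38.8% raised and 40.5% lowered over all genes. Their median was 0.39, or −0.14 under library size alone, beside −0.02 and −0.55 over all genes. With the length trend removed 14 were raised and 4 lowered, where 9449 of 21734 genes were raised and 7559 lowered. FTL, the ferritin light chain, rose by 1.81 (SE 0.07) and ATOX1, the copper chaperone that supplies the copper pumps, by 1.48 (SE 0.08). Those pumps fell, ATP7B with a log2 fold change of −2.49 (SE 0.08) and ATP7A with −1.82 (SE 0.09). ATOX1 has a transcript of 657.5 nt, ATP7B of 5861 nt and ATP7A of 4633.5 nt, and with the length trend removed they stood at 1.25, −1.33 and −0.93.

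Among 12 genes that heavy metals and oxidants are known to induce, 11 were tested, of which 3 rose, 7 fell and 1 passed in neither direction (median −0.52, or 0.17 with the length trend removed, when 6 were raised and 3 lowered). Over all genes 79.3% were called, 38.8% raised and 40.5% lowered. With the length trend removed, 9449 of 21734 genes were raised and 7559 lowered, with a median of 0.13. HMOX1, heme oxygenase 1, went from 11.09 ± 0.418 CPM up to 31.84 ± 3.18 CPM (log2 fold change 1.52, SE 0.08, edgeR adjusted p = 3.7e-09). BAG3, a co-chaperone, rose by 1.76 (SE 0.07). SLC7A11, the cystine transporter, had the largest fall (−3.37, SE 0.12). Its transcript has 9645 nt, and with the length trend removed it stood at −1.72. HSPA6, a stress-inducible HSP70, fell by 0.82 on the log2 scale (SE 0.23, edgeR adjusted p = 0.00533). HSPA1A was not tested and HSPA1B fell slightly (−0.57, SE 0.11), and reads of this near-identical pair cannot be assigned with certainty.

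Over the 6 libraries, log2(CPM + 1) of MT2A was most alike to that of RBFA (Pearson r = 0.9998), FUCA2 (0.9995) and CLU (0.9994), among 13392 named genes averaging 1 CPM or more. CLU, the secreted chaperone clusterin, stood at 229, 266 and 302 CPM in MGO and 126, 121 and 123 CPM in Control. For SLC30A1 they were TOB2 (0.9999), JOSD1 (0.9997) and ZNF398 (0.9996). The points share their libraries and the 2 groups, and 4308 and 4703 genes reached an r of 0.95 with MT2A and SLC30A1, so these values are descriptions only.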

How the data were processed

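Polyadenylated RNA of 6 libraries (3 MGO, 3 Control) was sequenced as stranded libraries. The authors deposited raw counts per gene, with 1 column for each library. The submitters' processing notes name STAR 2.7.0a and featureCounts 2.0.6 (alignment and counting tools), FastQC 0.12.0, Trim Galore 0.6.10, SAMtools 1.19.2, DESeq2 1.42.0 and the build hg38. The annotation used in counting, its strand option and its handling of multiply matching reads: not given in the sources used here.

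The count test was edgeR's quasi-likelihood test (edgeR 4.0.16, R 4.3.3) after filterByExpr and TMM scaling, with p-values adjusted by Benjamini-Hochberg over 23109 genes and a threshold of 0.05. An SE is the size of a log2 fold change over the root of its F statistic. CPM (counts-per-million) use the TMM-scaled library totals. The scripts were tested on simulated data with few changed genes and no trend on length. These data differ in both, so that test does not bear on the scaling used here. Coordinates and transcript lengths (median over coding basic transcripts) came from GENCODE 29, which matched 56723 of 63643 rows, and 21734 tested genes had a length. Without spike-in RNA all changes are relative.

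The genes, lists and rules were chosen with earlier results of these data known. Named genes were the 9 listed ones, other metallothionein rows with a count and their neighbours, the 2 largest rises and falls past the threshold in each transporter or metal list, and the 3 genes most alike to MT2A and to SLC30A1. Genes outside that rule (GLO1, HSPA1B, and list genes that missed the threshold or were not tested) were named after their values were seen. Alternatives were RLE, library size and upper quartile scaling, other filters, DESeq2 1.42.0, limma-voom (limma 3.58.1), robust dispersions, a 1.2-fold test, a replicate block, removal of the length trend (a spline with 5 degrees of freedom per library) and leaving out each library. No replicate pair of a group looked like the same library: counts differed with a chi-square of at least 3.78 times its degrees of freedom.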

Additional observations from a re-analysis of the deposited data

How the results depend on the processing

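MT2A, MT1X, MT1F, SLC30A1, SLC30A10 and SLC39A10 kept their direction and their call under all 17 alternatives each. Their log2 fold changes ranged from 1.08 to 1.78 (MT2A), 0.71 to 1.41 (MT1X), 0.77 to 1.47 (MT1F), 0.78 to 2.39 (SLC30A1), −1.27 to −0.57 (SLC30A10) and −2.75 to −1.16 (SLC39A10). MTF1 reversed to −0.25 under library size alone and lost its call in the test against a 1.2-fold change (adjusted p = 0.278), and the other 15 alternatives kept it. Library size alone also gave 5673 raised genes in place of 8964, 1 raised SLC30 gene, 2 raised SLC39 genes and a log2 ratio of 0.96 in place of 1.49 for the summed metallothionein level. Removal of the length trend gave 5 raised and 2 lowered SLC30 genes, 4 lowered copper and iron genes, and 6 raised and 3 lowered metal stress genes. Over all genes it gave 9449 raised and 7559 lowered. Without each library in turn, 5 listed genes stayed raised and 2 lowered, and over all genes 8684 to 9204 were raised and 9062 to 9706 lowered. Replicate numbers were taken as names: same-numbered libraries had correlations of deviations of 0.04, 0.02 and 0.01. With a replicate block 8869 genes were raised and 9299 lowered, and the listed genes were again 5 raised and 2 lowered. The cause of these differences was not tested. Lowered SLC39 genes numbered 8 in place of 7 with library size alone, DESeq2, no filter, robust dispersions and the replicate block. The same held without MGO replicate 1 and without Control replicate 2. They numbered 6 with upper quartile scaling, the filter of 1 CPM in 3 libraries, the 1.2-fold test and the length trend removed. MT1E, MT1G, MT1B, MT4, SLC30A8 and SLC39A12 had too few counts to test, and the cause was not tested.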

Other observations

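The number of metal response element matches in a promoter window was set beside the changes of all tested genes with a window, taking the window with most matches where a gene had several. Of 146 tested genes with 4 matches or more, 60 were raised and 62 lowered, with a median log2 fold change of 0.01. Of 7464 with no match, 3096 were raised and 3008 lowered, with a median of 0.02. With 1, 2 and 3 matches the medians were −0.02, −0.06 and −0.125. In these 3 classes 1615, 581 and 159 genes were raised and 1703, 642 and 192 lowered. MT2A and MT1X are among the raised genes with 4 or more, and SLC30A1 is among those with 2. Median transcript lengths were 2484 nt with 4 matches or more, 2318 nt with none, and 2472, 2472 and 2585 nt with 1, 2 and 3.

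Among MGO libraries the listed genes differed in how closely replicates lay. Coefficients of variation were 20.9% for MT2A, 18.5% for MT1F and 10.7% for MT1X, against 0.707% for SLC30A1, 0.636% for SLC30A10 and 2.51% for SLC39A10. In Control libraries they were 5.45, 17.5 and 10.0% for the metallothioneins in the same order, and 5.93, 2.2 and 1.91% for the transporters. MT1F rests on fewer counts than the others. In MGO, SLC30A10 had 654 to 689 counts, SLC39A10 999 to 1053 and SLC30A1 16516 to 16975. Their coefficients of variation there lie below what counting error alone gives on average, as values from 3 libraries can. The differences in spread between genes were not tested.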
